A study of Homo sapiens with 17 samples.

Results

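The proteasome subunit genes were examined in CUT&Tag data from H1 cells, a human pluripotent stem cell line. Members were the RefSeq protein-coding genes whose symbols begin with PSMA, PSMB, PSMC, PSMD, PSME, PSMF or PSMG, which gave 50 of 20037 protein-coding genes. By role, 7 encoded the 20S alpha ring, 7 the constitutive 20S beta ring, 3 the inducible beta subunits (PSMB8, PSMB9 and PSMB10) and 2 tissue-restricted 20S subunits (PSMA8 of testis and PSMB11 of thymus). A further 6 encoded 19S ATPases, 11 encoded 19S non-ATPases, 3 (PSMD5, PSMD9 and PSMD10) chaperones of the 19S base and 4 (PSMG1 to PSMG4) chaperones of 20S assembly. The activator subunits PSME1 to PSME4 and the inhibitor PSMF1 made up the remaining roles. PSMC3IP, a recombination factor, and PSME3IP1 matched by symbol alone, and without them the median levels given below for all members shifted by at most 5.68 points.

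The series held 17 libraries. H3K4me1 and H3K27ac, 2 histone marks, were each mapped in 4 libraries of cells given an shRNA against HNRNPU (shHNRNPU#1 and shHNRNPU#2, 2 repeats each) and in 2 libraries of cells given an shRNA against luciferase (shLUC). The antibody that the labels call POLIIS2P, the usual short name of the elongating form of RNA polymerase II, was used in 1 shHNRNPU#1 and 2 shLUC libraries. HNRNPU itself, a nuclear RNA-binding and scaffold protein, was mapped in 2 libraries of untransfected cells. The shRNA cells had received virus packaged in 293T cells followed by puromycin selection, which the untransfected cells had not. The labels did not say whether repeats came from separate cultures, so p-values measure only the spread between these libraries.

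Each library was deposited as a list of peak summits with a score, and no read depth was given in the files. For every gene the highest-scoring summit within the gene or 1000 bp either side was found and its rank was expressed as a percentile of that library's list, called the top percentile (100 is the strongest summit of the list, 0 means no summit). The lists held 40487 to 85142 summits for H3K27ac and 147145 to 214333 for H3K4me1 in shHNRNPU cells, 34649 and 35526 for HNRNPU, and 79949 to 87456 for POLIIS2P. In the shLUC histone libraries the title and the peak names inside the file gave opposite antibodies: the libraries titled H3K4me1 held 62449 and 90914 summits, and those titled H3K27ac held 179137 and 181357. Groups follow the titles, and every comparison that uses these 4 libraries is also given with the names exchanged. Among pluripotency markers NANOG had a mean H3K4me1 percentile of 93.63 in shHNRNPU cells, whereas the liver gene ALB had no summit in any library and the blood gene PTPRC reached 96.02 for H3K4me1. Of the 8 pluripotency markers 7 (87.5%) had an H3K4me1 summit in every shHNRNPU library, SOX2 being the exception. So did 5 of 6 markers of other lineages (83.3%, all but ALB) and 74.2% of all genes, so this presence did not set the lists apart. POU5F1 had no POLIIS2P summit in any library, and POU5F1, NANOG and DPPA4 had no HNRNPU summit. No assay here measured HNRNPU RNA or protein, so depletion could not be checked. At the HNRNPU gene the POLIIS2P percentile was 99.69 in the shHNRNPU library and averaged 99.5 in the shLUC libraries.

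The proteasome is the main protease of the cytosol and nucleus. Its 20S core is a stack of alpha and beta rings with the catalytic sites inside, and the 19S particle binds ubiquitin-tagged proteins, unfolds them with its ATPase ring and feeds them into the core. Interferon induces another set of catalytic subunits together with the activators PSME1 and PSME2, and these favour the production of antigenic peptides. Under proteasome stress the transcription factor NFE2L1 raises subunit genes together through antioxidant response elements, while pluripotent cells are known for high proteasome activity. H3K27ac marks active promoters and enhancers, and H3K4me1 is typical of enhancers and of the flanks of promoters.

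RefSeq promoter sequence (GRCh38.p14, 250 bases before to 50 after a start) was matched for 44 of the 50 genes by symbol. PSMD4, PSMB6, PSMB1, PSMB7, PSMA7 and PSMG3 had no entry. The core of the antioxidant response element, TGACNNNGC on either strand, was found in 15 of 55 member promoters (27.3%), against 13.8% of all 22199 promoters and 10.6% of 85 promoters of mitochondrial ribosomal protein genes, which served as another set of housekeeping genes. In 13 of these genes the core lay upstream of the start, and the 9 windows shown lie outside every other protein-coding gene and outside the gene's own annotated span. They are printed because they show where a regulator of the whole set could be recognised by sequence, and because summits could be set against them. Capitals mark the core, which reads GCNNNGTCA where it lies on the opposite strand, and each window is written 5′ to 3′ on the gene's strand.
PSMB9, chr6:32853994-32854102, plus strand: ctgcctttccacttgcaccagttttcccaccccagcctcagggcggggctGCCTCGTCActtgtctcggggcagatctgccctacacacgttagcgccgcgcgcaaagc
PSMD5, chr9:120842998-120843106, minus strand: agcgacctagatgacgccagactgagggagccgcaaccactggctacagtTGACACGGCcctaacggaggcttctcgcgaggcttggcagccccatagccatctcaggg
PSME1, chr14:24136058-24136166, plus strand: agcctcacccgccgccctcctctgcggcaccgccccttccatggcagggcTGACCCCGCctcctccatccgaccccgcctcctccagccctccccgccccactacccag
PSME2, chr14:24146727-24146835, minus strand: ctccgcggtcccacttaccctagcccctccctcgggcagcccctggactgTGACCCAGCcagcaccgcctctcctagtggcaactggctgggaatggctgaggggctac
PSMG1, chr21:39183576-39183684, minus strand: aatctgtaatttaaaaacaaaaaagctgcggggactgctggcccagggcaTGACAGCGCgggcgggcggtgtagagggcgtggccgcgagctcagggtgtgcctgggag
PSMB3, chr17:38752587-38752695, plus strand: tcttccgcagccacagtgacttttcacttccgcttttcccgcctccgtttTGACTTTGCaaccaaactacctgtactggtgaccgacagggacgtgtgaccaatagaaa
PSMD3, chr17:39980720-39980806, plus strand: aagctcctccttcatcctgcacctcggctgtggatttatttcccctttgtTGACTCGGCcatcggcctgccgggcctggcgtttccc
PSMD12, chr17:67366684-67366792, minus strand: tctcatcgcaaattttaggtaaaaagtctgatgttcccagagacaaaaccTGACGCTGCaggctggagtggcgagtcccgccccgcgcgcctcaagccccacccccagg
PSME4, chr2:53970994-53971077, minus strand: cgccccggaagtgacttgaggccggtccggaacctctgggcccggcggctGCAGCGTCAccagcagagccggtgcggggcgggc

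Of the 13 upstream windows, 3 (PSMB9, PSMD5 and PSME1) contained a summit of both HNRNPU repeats, and these 3 and PSME2 contained a summit of every POLIIS2P library. At PSMB9, which encodes an inducible catalytic subunit, the HNRNPU summits lay at 32854038 and 32854069 on chromosome 6, inside the printed window. At PSMD5, a chaperone of the 19S base, they lay at 120843022 and 120843087 on chromosome 9. At PSMG1 the HNRNPU summit of repeat 2 lay inside the window and that of repeat 1 lay 59 bp outside it. A match of these letters is a description of the sequence and not a binding site.

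Other promoter motifs were searched on both strands in the same windows. CCAAT, the NF-Y box, was in 24 of 55 member promoters (43.6%, all promoters 34.7%), and CCGGAAG, an ETS core, was in 18 (32.7%, all promoters 12.8%). AAGATGG, the YY1 core, was in 10 (18.2%, all promoters 6.04%), and GCGCATG, the core of nuclear respiratory factor 1, was in 6 (10.9%, all promoters 5.26%). Mitochondrial ribosomal protein promoters held the ETS core in 38.8% and the YY1 core in 31.8%, above the proteasome set, and held CCAAT in 32.9%, below it. CCAAT and the antioxidant response core occurred together in the promoters of PSMA4, PSMB3, PSMB9, PSMD3 and PSMG1.

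HNRNPU summits were found at most proteasome genes. Both repeats had a summit at 38 of 50 members (76.0%), against 63.7% of all protein-coding genes and 60 of 77 mitochondrial ribosomal protein genes. When only summits inside the gene itself were counted, 10 members had one in both repeats, below the 40.6% of all genes, and at a minimum score of 10 the count was 14 (all genes 21.1%). The median top percentile of the members was 68.62 and 70.29 in the 2 repeats, where all genes had 57.7 and 58.52. In each repeat 12 members (24.0%) stood at or above the 90th percentile, against 17.5% and 17.6% of all genes. The mitochondrial ribosomal protein genes, with medians of 73.48 and 76.29, stood above the proteasome genes in both repeats. Members were shorter than the average gene (median 13551.5 bp, all genes 24115 bp, mitochondrial ribosomal protein genes 8618 bp).

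**Figure D1:**
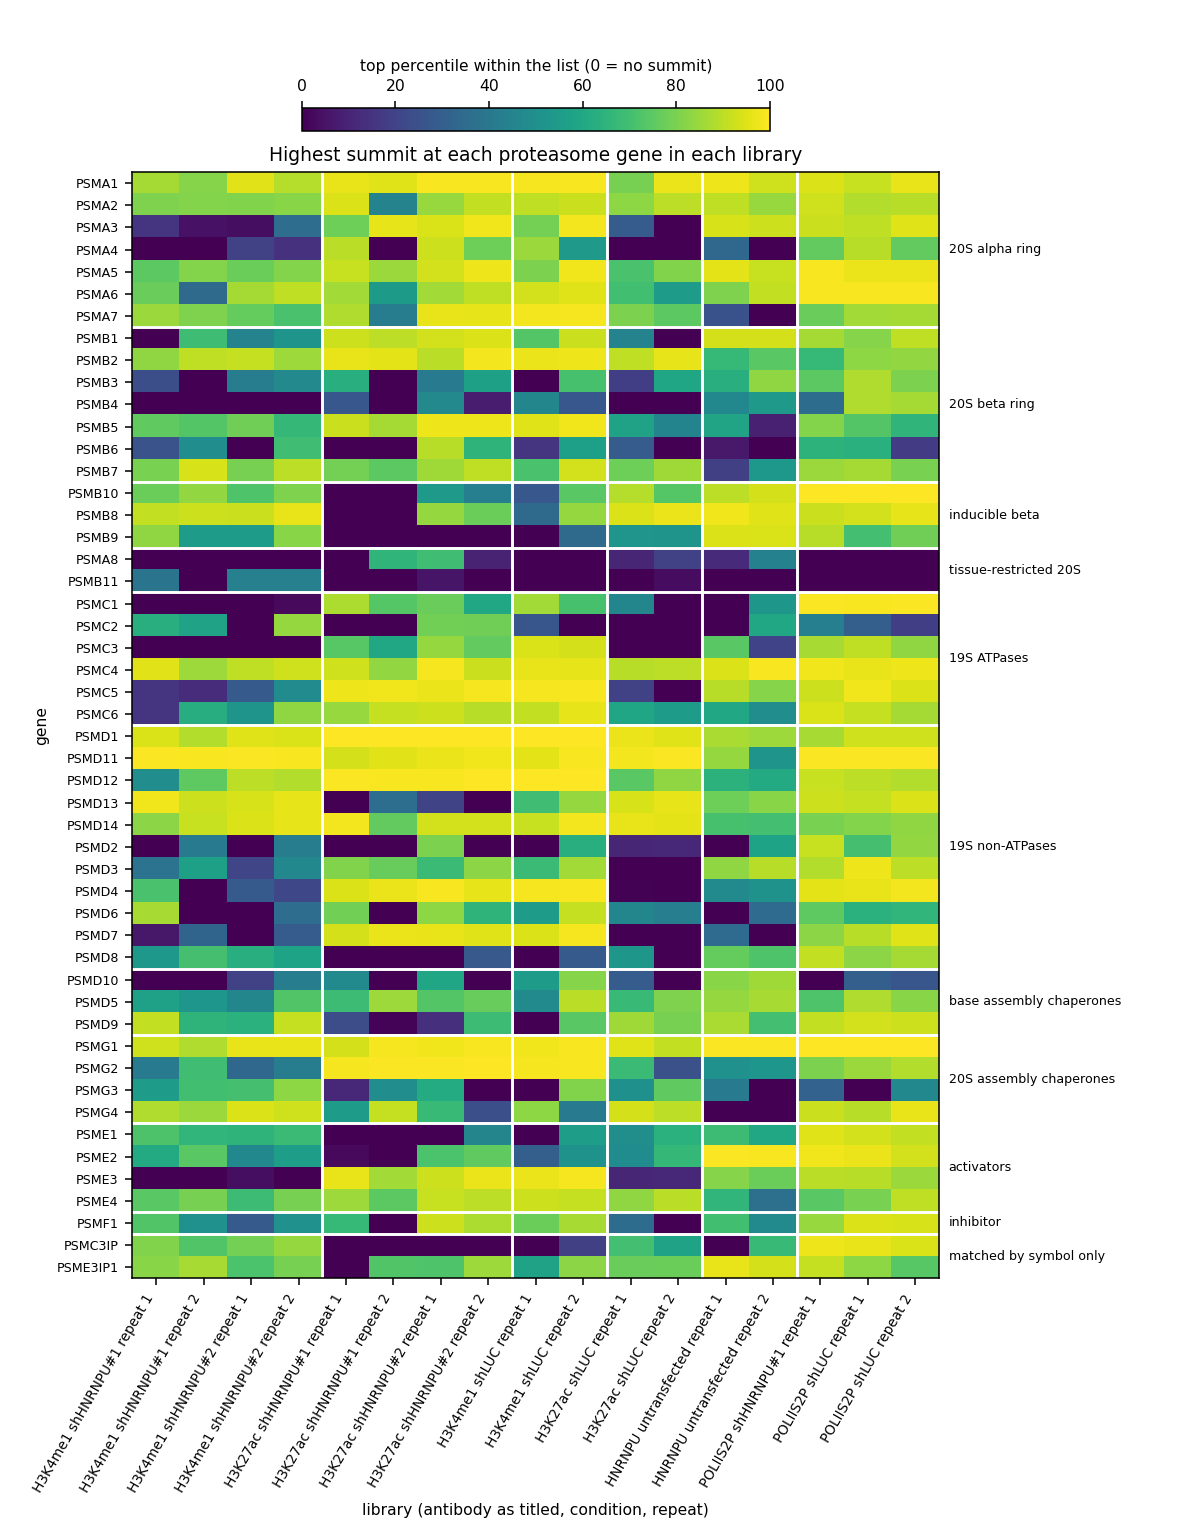
Top percentile within the list of the highest summit at each of the 50 proteasome genes (rows, ordered by role) in each of the 17 libraries (columns, antibody as titled). Dark cells at 0 mark genes without a summit. PSMA8 and PSMB11 are dark in all POLIIS2P columns, and PSMG1 is bright in all 17.

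The strongest HNRNPU summit of the set was at PSMG1, a chaperone that starts alpha ring assembly, at 99.49 and 99.60 in repeats 1 and 2. PSME2, the beta subunit of the interferon-inducible activator, followed with 99.33 and 99.15. PSMC4, a 19S ATPase, stood at 94.69 and 98.99. All 3 were among the 11 members at or above the 90th percentile in both repeats.

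All 3 inducible catalytic genes were among those 11 members. PSMB8, the inducible chymotrypsin-like subunit, stood at 97.67 and 94.98. PSMB9, another inducible catalytic subunit, stood at 94.90 and 94.19, and PSMB10, the inducible trypsin-like subunit, at 90.05 and 93.45. Their constitutive counterparts were lower and less alike between repeats. PSMB5, which PSMB8 replaces, had 58.26 and 9.29. PSMB6, which PSMB9 replaces, had 6.78 in repeat 1 and no summit in repeat 2, while PSMB7, which PSMB10 replaces, had 19.10 and 53.26. In each of the 3 pairs both values of the inducible gene exceeded both values of the constitutive gene, and this difference was not tested. The PSMB9 summits also fell in the window of TAP1, the antigen peptide transporter gene that starts on the opposite strand beside it, and those of PSMB8 lay in the window of TAP1 as well. Which gene of such a pair a summit belongs to cannot be told apart here.

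**Figure D2:**
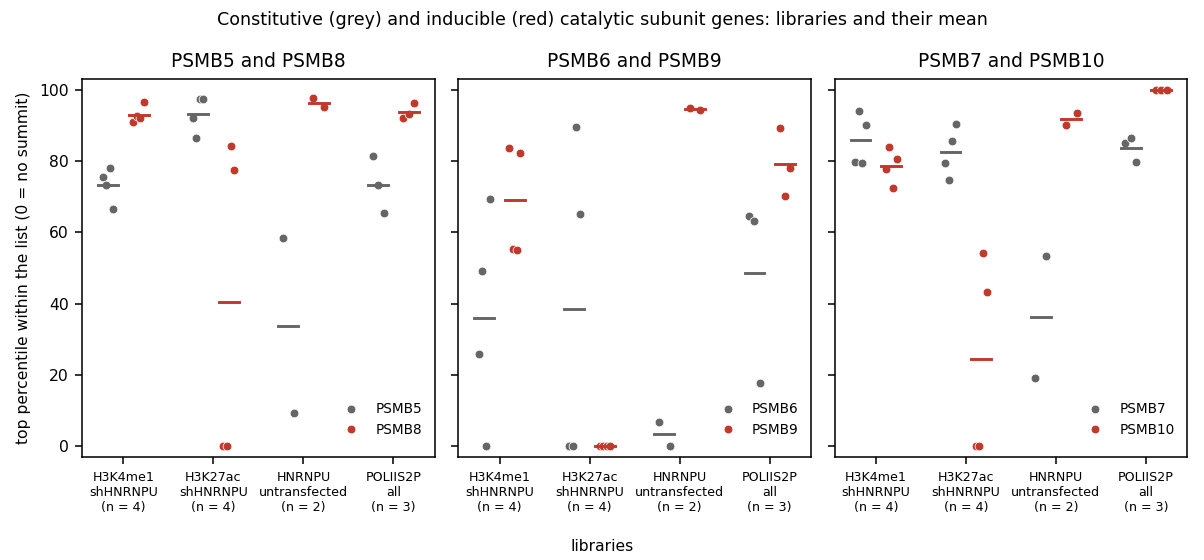
Top percentile of the constitutive (grey) and inducible (red) catalytic subunit genes in shHNRNPU libraries of H3K4me1 and H3K27ac, untransfected HNRNPU libraries and all POLIIS2P libraries. Points are libraries and bars their mean. The inducible genes are above their counterparts for HNRNPU in all 3 panels and at 0 for H3K27ac in the shHNRNPU#1 libraries.

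The alpha ring had the next highest HNRNPU level of the larger roles, with medians over its 7 genes of 90.32 and 90.88. PSMA1 (97.58 and 92.84), PSMA5 (95.98 and 91.77) and PSMA3 (94.14 and 92.20) were above 90 in both repeats, but PSMA7, whose product is an alpha ring subunit too, had 25.34 in repeat 1 and none in repeat 2. The constitutive beta ring had medians of 54.13 and 58.26, and only PSMB1 (93.44 and 93.42) passed 90. None of the 11 non-ATPase genes reached 90, their highest being PSMD3, a subunit of the 19S lid, at 83.38 and 89.42. PSMD6 and PSMD7, which encode lid subunits, each had a summit in 1 repeat only, at 34.84 and 34.95.

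Among the smaller roles, the 3 base chaperones were alike, with PSMD5 at 84.27 and 86.86, PSMD10 at 82.30 and 85.92, and PSMD9 at 87.43 and 69.99. The activator genes ranged from PSME2 down to PSME4, the nuclear activator, at 65.82 and 36.74. PSME1, the partner of PSME2 in one ring, had 68.59 and 60.12. PSMF1, the inhibitor, had 69.71 and 48.03. PSMB11 and PSMG4 had no HNRNPU summit in either repeat, and PSMA8 had 11.88 and 43.95. The median gap between repeats over the 38 genes with a summit in both was 4.28 points and the largest was 54.1 points, at PSMC3. Neighbours in the order whose means lie closer than their own gaps do not differ beyond the spread of the 2 libraries.

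HNRNPU summits at members sat mostly at gene starts. Of the members with known strand and a summit, 86.5% and 80.0% had the highest summit within 1000 bp of the start, against 64.7% and 64.3% of all genes and 95.0% and 96.5% of mitochondrial ribosomal protein genes. Those start summits lay upstream of the start in 22 and 24 of 32 such members (68.8% and 75.0%), with median offsets of -67 and -93 bp. Over all genes with a start summit, 4467 of 7443 and 4407 of 7389 lay upstream, with median offsets of -54 and -52 bp. For mitochondrial ribosomal protein genes the upstream shares were 64.9% and 58.2%. Most start summits thus lay upstream in all genes too. In 27 of the 38 genes with a summit in both repeats (71.1%, all genes 70.8%) the 2 summits were within 250 bp of each other. Some summits lay far from the outermost annotated start in both repeats. They lay at 123242 and 123238 bp for PSMA1, 13733 and 13696 bp for PSMA6, and 5273 and 5272 bp for PSMF1. Distances used the outermost start, while promoter entries also gave later starts. An ETS core at 35292380 (first base -2) lay at such a start of PSMA6, and one at 1118597 (-5) at that of PSMF1. A summit at a later start counts here as inside the gene, so the start shares above can be too low. The highest HNRNPU summit lay in the window of another protein-coding gene for 13 and 14 of the 43 members with a summit, BRWD1 at PSMG1, RNF31 at PSME2 and TBP at PSMB1 among them.

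POLIIS2P summits were present at nearly every member. Between 47 and 48 genes had one in each library (94.0% to 96.0%, all genes 72.9% to 75.0%), and the exceptions in all 3 libraries were PSMA8 and PSMB11, the subunits restricted to testis and thymus. The median top percentile was 88.9 to 89.4 for members, 75.57 to 77.22 for all genes and 89.4 to 89.88 for mitochondrial ribosomal protein genes. PSMG1 was again the highest member, its summit lying in the top 0.0175% of the shHNRNPU#1 list and the top 0.00457% and 0.0129% of the shLUC lists. PSMB10 stood at the 99.80, 99.74 and 99.80 percentiles in the same order, PSMC1 at 99.60, 99.04 and 99.29, and PSMD11, a lid subunit gene, at 99.31, 99.54 and 99.45. The PSMG1 summit lay 21 to 95 bp upstream of its start in the window shared with BRWD1, while that of PSMC1 lay 17702 to 17704 bp downstream, in the window of NRDE2. The constitutive beta ring was the lowest complete role, with medians of 74.91 to 82.93, and PSMB6 ranged from 17.82 to 64.47.

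**Figure D3:**
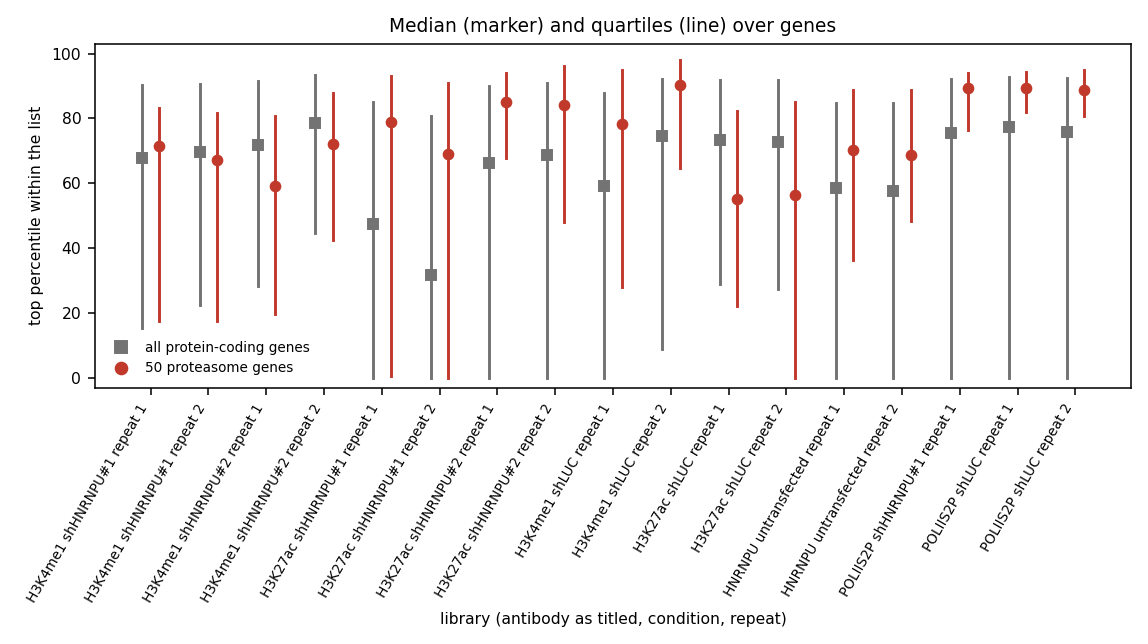
Median (marker) and quartiles (line) of the top percentile over the 50 proteasome genes (red circles) and all protein-coding genes (grey squares) in each library, antibody as titled. Proteasome genes are above all genes for HNRNPU, POLIIS2P and shHNRNPU H3K27ac libraries and below them in 3 of the 4 shHNRNPU H3K4me1 libraries.

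Levels of the assays were related across genes, as a description over points that share libraries and gene windows. Spearman's rho between the HNRNPU mean and the shLUC POLIIS2P mean was 0.46 over the 50 members and 0.72 over all 20037 genes. Between HNRNPU and H3K27ac of shHNRNPU cells it was 0.20 over members and 0.68 over all genes. Genes without a summit tie at 0, so rho over members and rho over all genes are not directly comparable. An HNRNPU summit was present at 86.0% of members in each repeat, and at 70.2% and 70.1% of all genes. In 25 of 37 members with summits in both repeats of each assay (67.6%, all genes 61.9%) the first-repeat HNRNPU and POLIIS2P summits were within 500 bp.

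The histone marks divided the proteasome genes. In shHNRNPU cells the median H3K27ac percentile of members was 69.13 to 85.13 over the 4 libraries, where all genes had 31.78 to 68.69. The median H3K4me1 percentile was 59.09 to 72.13, where all genes had 67.82 to 78.68. It was below that of all genes in 3 of the 4 libraries and above it in shHNRNPU#1 repeat 1 (71.62, all genes 67.82). Without PSMC3IP and PSME3IP1 the median in that library was 67.12, also below that of all genes. A summit in every shHNRNPU library was found at 29 members for H3K27ac (58.0%, all genes 52.0%) and at 34 for H3K4me1 (68.0%, all genes 74.2%). PSMA8, PSMB4 and PSMC3 had no H3K4me1 summit in these 4 libraries, and PSMB9 and PSMC3IP had no H3K27ac summit.

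A leading mark was called where all 4 libraries of one antibody had a higher percentile than all 4 of the other, a comparison that involves shHNRNPU cells only and was added after the data were seen. H3K27ac led at 15 members (30.0%), against 13.2% of all genes with a summit and 28 of 77 mitochondrial ribosomal protein genes. H3K4me1 led at 8 members (16.0%), against 34.3% of all genes and 7 of 77. The genes led by H3K27ac were all constitutive: PSMA3, PSMA5, PSMB1, PSMB5, PSMC1, PSMC3, PSMC5, PSMC6, PSMD1, PSMD3, PSMD4, PSMD7 and PSMD12 of the core and the 19S particle, the chaperone PSMG2 and the activator PSME3. PSMC5, a 19S ATPase, had H3K27ac at 97.32, 97.96, 97.15 and 98.76 and H3K4me1 at 15.49, 12.86, 28.26 and 48.09. PSME3, the nuclear activator subunit, had H3K27ac at 96.81, 86.08, 92.39 and 97.06 and a single H3K4me1 summit at 3.64. These values were far apart in every library.

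All 3 inducible catalytic genes were led by H3K4me1. PSMB8 had H3K4me1 at 91.01, 92.55, 91.94 and 96.51, with no H3K27ac summit in either shHNRNPU#1 library and 84.20 and 77.60 in the shHNRNPU#2 libraries. PSMB9 had H3K4me1 at 83.57, 55.33, 55.12 and 82.26 and no H3K27ac summit in any shHNRNPU library. PSMB10 had H3K4me1 at 77.65, 83.90, 72.39 and 80.62, no H3K27ac summit with shHNRNPU#1 and 54.12 and 43.33 with shHNRNPU#2. The shHNRNPU#1 lists of H3K27ac were the shortest histone lists (51655 and 40487 summits, against 75264 and 85142 for shHNRNPU#2), and the part of list length in these absences was not tested. Over 6 other settings of window, score and shRNA, H3K4me1 led at PSMB8 in 5, at PSMB10 in 4 and at PSMB9 in 3. The whole count of genes led by H3K4me1 ranged from 3 to 15 in those settings (21.9% to 52.3% of all genes), and that led by H3K27ac from 6 to 27 (7.49% to 25.5%). The other genes led by H3K4me1 were PSME1 of the inducible activator, PSMD8, PSMD11, PSMD13 and PSMC3IP. PSME2, which pairs with PSME1, was not led by either mark, with H3K4me1 at 61.09, 74.45, 46.79 and 55.93 and H3K27ac at 2.60, 0, 71.75 and 75.68. The constitutive counterpart PSMB5 had H3K27ac at 91.90, 86.45, 97.30 and 97.42 and H3K4me1 at 75.39, 73.24, 78.14 and 66.67, whereas at PSMB6 and PSMB7 both marks overlapped.

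**Figure D4:**
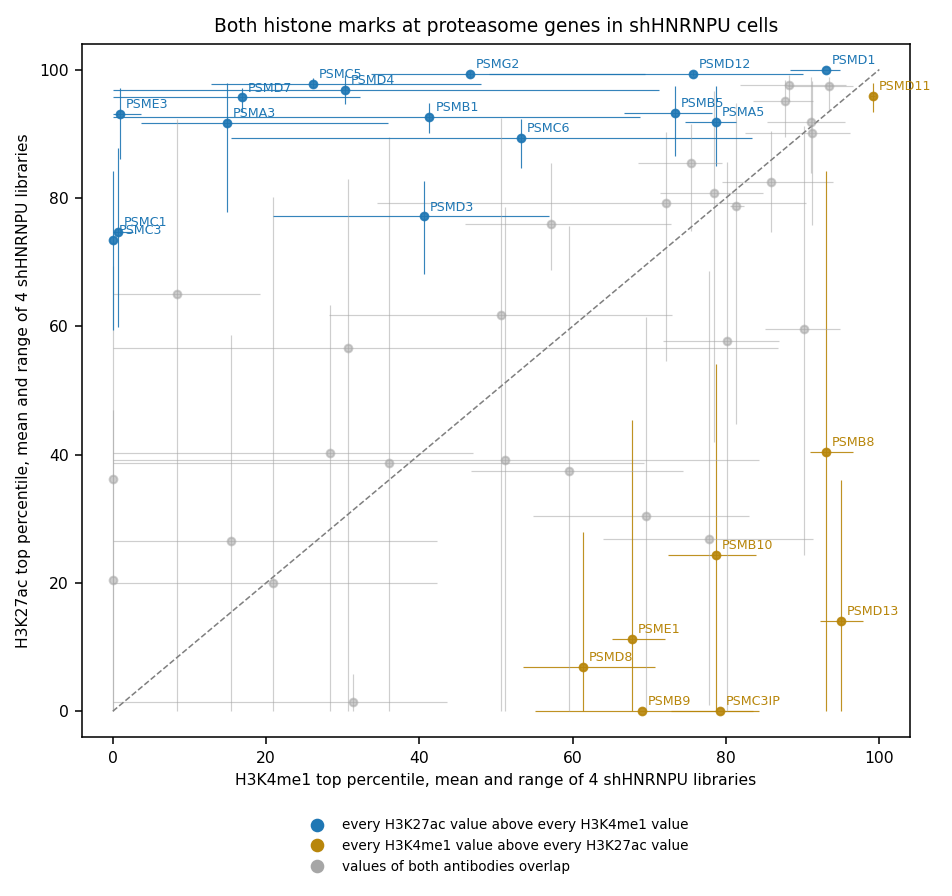
Mean H3K4me1 (x axis) and H3K27ac (y axis) top percentile of each proteasome gene over 4 shHNRNPU libraries, with lines giving the range and the dashed diagonal marking equality. Blue marks the 15 genes led by H3K27ac and gold the 8 led by H3K4me1, which include PSMB8, PSMB9 and PSMB10. Grey genes overlap.

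The marks also differed in place. Among members whose highest summit was at the start, H3K4me1 lay upstream of the start in 75.0% to 85.0% over the shHNRNPU libraries and H3K27ac in 36.7% to 50.0%. The median offset was -104 to -87 bp for H3K4me1 and -0.5 to 60 bp for H3K27ac. In all genes the upstream shares were 65.9% to 68.5% and 46.4% to 47.7%.

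The question of the design was how loss of HNRNPU changes these marks. As titled, shHNRNPU and shLUC libraries did not overlap for H3K4me1 at 33 of 49 members with a summit (7 higher and 26 lower in shHNRNPU), and percent called over all genes was 61.3% (37.2% higher and 24.1% lower). For H3K27ac they did not overlap at 23 of 50 members (15 higher and 8 lower), against 57.8% of all genes (16.4% higher and 41.4% lower). With both directions counted together, the members' share was near the background for H3K4me1 and below it for H3K27ac. The direction of most called members was opposite to that of most called genes. Median differences were -10.4 points for H3K4me1 (all genes 4.74) and 6.78 for H3K27ac (all genes -10.6). The mitochondrial ribosomal protein genes moved with the members, by -19.9 and 11.9. The 15 members higher for H3K27ac were the same 15 genes that H3K27ac led within shHNRNPU cells. Both comparisons use the same H3K27ac libraries of shHNRNPU cells, so this match is not independent evidence.

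Single genes as titled differed by up to nearly the whole scale. PSME3 had H3K4me1 percentiles of 0, 0, 3.64 and 0 in shHNRNPU cells against 96.96 and 98.58 in shLUC cells, a difference of -96.86 (two-sided exact permutation p = 0.0667, the smallest that 4 against 2 libraries allow). PSMC3 had no H3K4me1 summit in the 4 shHNRNPU libraries and 94.47 and 93.49 in the shLUC libraries (exact permutation p = 0.0667). PSMD7, which had 6.41, 32.22, 0 and 28.94 against 94.55 and 98.75, differed by -79.76 for H3K4me1 and by 95.64 for H3K27ac. The largest rise for H3K27ac was 96.49 at PSMD4, the ubiquitin receptor of the 19S particle, with 94.68, 97.11, 99.17 and 96.11 against 0.55 and 0. PSMC5 rose by 87.88 on the same scale. At these 5 genes the groups stood far apart, and the shLUC values under one title lay nearer the shHNRNPU values under the other.

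Over the set, the shLUC means lay nearer the shHNRNPU means of the other antibody at 40 of 50 members (80.0%), and at 71.2% of all genes. Of the 15 members led by H3K27ac in shHNRNPU cells, 14 were led by the libraries titled H3K4me1 in shLUC cells and none by those titled H3K27ac. Of the 8 led by H3K4me1, 4 (PSMB8, PSMB9, PSMD13 and PSMC3IP) were led by the H3K27ac-titled libraries in shLUC cells and 4 by neither. Start summits went the same way. In shLUC cells those titled H3K4me1 lay upstream in 34.6% and 50.0% of the members that had one. Those titled H3K27ac did so in 83.3% and 76.5%. Over all genes the shares were 45.5% and 44.4% under the H3K4me1 title and 64.9% and 63.9% under the H3K27ac title. Which name is right cannot be told apart from these files, and the effect of the shRNA as titled cannot be told apart from an exchange of names.

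With the names exchanged, far fewer members stood apart. For H3K4me1, 10 of 48 members did not overlap (percent called over all genes 13.9%), 6 of them higher (6.43%) and 4 lower (7.47%) in shHNRNPU cells. The median difference was 0.865 points (all genes -0.232). For H3K27ac 4 of 50 did not overlap (13.2%), none higher (2.05%) and 4 lower (11.2%), with a median difference of -4.1 points where all genes had -3.93. The members' share was above the background for H3K4me1 and below it for H3K27ac. By limma on the log2 rank share, fitted over genes with a summit in all 6 libraries, 0 of 29 and 0 of 28 members had an adjusted p under 0.05, against 0.0413% and 0.00991% of all genes. At an unadjusted p under 0.05 limma gave 0 members for H3K4me1 and 2, PSMA7 and PSMC3, for H3K27ac. As titled, limma called 17 of 28 members for H3K4me1 (51.9% of all genes) and 8 of 21 for H3K27ac (41.8%).

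**Figure D5:**
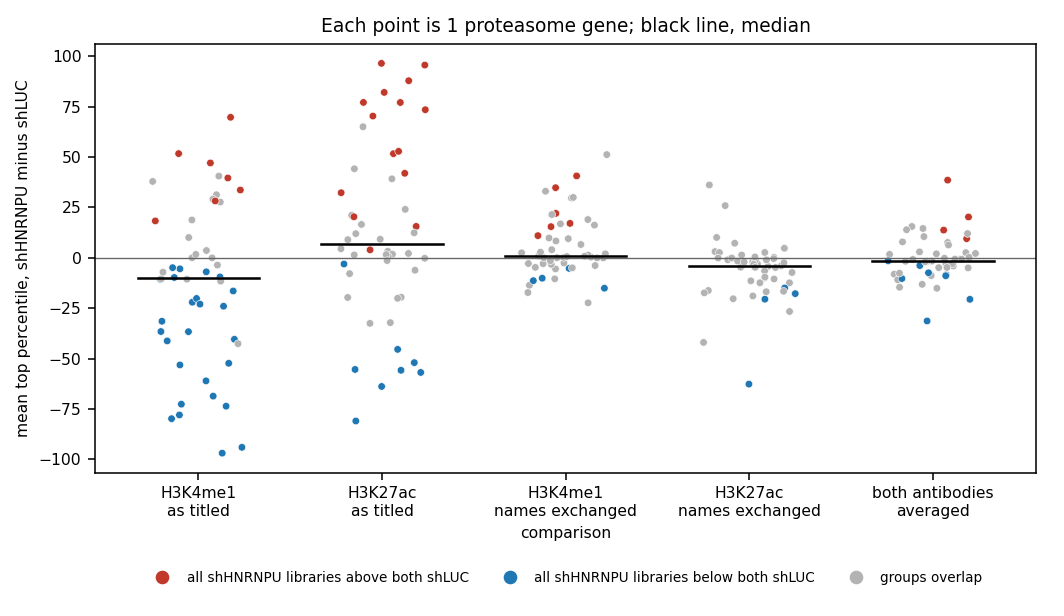
Difference in mean top percentile (shHNRNPU minus shLUC) of each proteasome gene in the 5 histone comparisons, with a black line at the median over genes. Red and blue points are genes whose libraries do not overlap. The spread is wide as titled, with extremes near -97 and 96, and narrower with the names exchanged or both antibodies averaged.

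Among members apart for H3K4me1 with the names exchanged, PSMD3 had 38.05, 56.90, 20.92 and 46.73 in shHNRNPU cells and no summit in the shLUC libraries, a difference of 40.65 (exact permutation p = 0.0667). PSMD8, a lid subunit gene, had 53.47, 70.67, 63.07 and 57.98 against 52.98 and 0, a difference of 34.81 (exact permutation p = 0.0667). PSMB5 had 73.36 ± 4.89 (SD, n = 4) against 51.30 ± 8.92 (SD, n = 2), a difference of 22.06 (exact permutation p = 0.0667). PSMB9 and PSME1, both interferon-inducible, were higher by 17.11 (exact permutation p = 0.133) and 11.03 (exact permutation p = 0.0667). PSMC3IP was also higher, and PSMA2, PSMA8, PSME3 and PSME4 were lower, with differences of -15.04 to -5.19. The other inducible genes overlapped.

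For H3K27ac with the names exchanged, PSMD13, a 19S lid subunit, had the widest gap of the members that stood apart. It stood at 0, 36.03, 20.38 and 0 in shHNRNPU cells against 69.44 and 84.00 in shLUC cells, a difference of -62.61 (exact permutation p = 0.0667). Its window is shared with SIRT3, which starts on the opposite strand. PSMC3 had 74.20, 59.43, 84.16 and 76.15 against 94.47 and 93.49, a difference of -20.49 (exact permutation p = 0.0667). PSMA7 had 88.28, 41.96, 96.59 and 96.40 against 98.41 and 98.69, a difference of -17.74 (exact permutation p = 0.4), so that a single low library carried most of its gap. PSMA6 differed by -14.92 (exact permutation p = 0.333). All 11 non-ATPase genes had differences below 0, with a median of -2.07, where 11474 of 16802 genes tested were below 0 with a median of -3.93.

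Averaging both antibodies within each repeat gives a value that an exchange of names leaves unchanged, at the price of not telling the marks apart. There 12 of 50 members stood apart (percent called over all genes 12.6%), namely PSMB5, PSMC2, PSMD3 and PSMD8 higher (3.29%) and PSMA7, PSMB2, PSMC3, PSMD1, PSMD10, PSMD13, PSME3 and PSME4 lower (9.28%). The median difference was -1.54 (all genes -2.17). PSMD13 fell from 85.86 ± 6.01 (SD, n = 2) to 54.58 ± 7.55 (SD, n = 4), a difference of -31.29 (exact permutation p = 0.0667). PSMC2, a 19S ATPase, had 45.22 ± 24.5 (SD, n = 4) against 6.65 ± 9.41 (SD, n = 2), a difference of 38.57 (exact permutation p = 0.133). PSMD10 differed by -20.55 (exact permutation p = 0.2). By limma 0 of 19 members were called (0.0336% of all genes), with 1, PSMA7, at an unadjusted p under 0.05.

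POLIIS2P had 1 shHNRNPU library, so its differences have no replicate check and no test. A change was counted where the rank share, the percentage of the list at or above the gene's highest summit, moved at least 2-fold against both shLUC libraries. This held for 4 of 48 members (percent called over all genes 10.5%), 2 stronger (4.73%) and 2 weaker (5.78%) in the shHNRNPU library. PSMB4, a beta ring subunit gene, had a top percentile of 35.42 against 88.07 and 86.62, and PSMF1 had 84.39 against 94.80 and 93.93. PSMB9 rose to 89.28 from 70.17 and 78.15, and PSMA5 to 98.85 from 97.10 and 97.22. The PSMA5 summit lay at the gene end in the window of SORT1. The other members moved less than 2-fold against at least 1 shLUC library, and the members' median log2 gain in rank was -0.0489 (all genes -0.0868).

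Genes that work with the proteasome were followed in 3 lists. HNRNPU had summits in both repeats at 10 of 12 other subunits and partners, 6 of 8 regulators of proteasome gene transcription and 7 of 11 genes of ubiquitin and its shuttle factors, against 63.7% of all genes. The partner genes had HNRNPU medians of 87.76 and 88.72, above the subunit genes. H3K4me1 led at 4 of the 8 regulators (NFE2L2, MAFG, MAFK and MAFF) and H3K27ac at none (all genes 34.3% and 13.2%), while H3K27ac led at RPS27A, UBQLN1 and VCP of the ubiquitin list and at PAAF1 and ZFAND5 of the partners. NFE2L1, the main activator of subunit genes under stress, had a mean HNRNPU percentile of 91.63.

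In the knockdown comparison with the names exchanged, the partner TXNL1 was higher for H3K4me1 (all genes 6.43%). The regulator NGLY1, which activates NFE2L1 by removing its glycans, was lower (all genes 7.47%). For H3K27ac 2 of 12 partners, 1 of 8 regulators and 4 of 11 ubiquitin genes were lower (all genes 11.2%). Among them were POMP and AKIRIN2, which assist assembly and nuclear import, MAFK, RPS27A, UBQLN1 and UBQLN4. With both antibodies averaged, ADRM1, POMP, USP14 and AKIRIN2 of the 12 partners were lower. So were NFE2L1, MAFG, MAFK and MAFF of the 8 regulators and UBQLN1 of the 11 ubiquitin genes. None of the 3 lists had a higher gene, where all genes had 9.28% lower and 3.29% higher. NFE2L1 stood at 73.46 ± 10.6 (SD, n = 4) against 89.68 ± 3.02 (SD, n = 2), a difference of -16.23 (exact permutation p = 0.133). For POLIIS2P, USP14 and UBA1 were stronger (all genes 4.73%). ZFAND5, RPS27A and NGLY1 were weaker (all genes 5.78%), the last with 56.13 against 91.51 and 92.54.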

How the data were processed

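Summit lists of 17 CUT&Tag libraries were deposited by the authors. Per the labels, processing involved cutadapt, Bowtie2, SAMtools, MACS2 and deepTools with the hg38 build, without roles, order or versions, and control libraries and read depth were not given in the sources used here. The score was taken, from its lower limits of 2.00 (histone lists) and 1.30 (others), as the deposited −log10 of a p or q value. A series-wide list of HNRNPU intervals carried a deposited score of 0 throughout, so only its positions were used. All summits above the authors' threshold were kept.

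Genes came from RefSeq (GRCh38.p14), and members and gene lists were chosen with earlier results of these data known. Summits were assigned to the gene plus 1000 bp each side and ranked within their list, since lists of unequal length are not comparable in score. Rank scaling makes each value relative to its own list. Groups followed the titles. A gene was called where groups did not overlap, with a two-sided exact permutation test over 15 assignments, and limma 3.58.1 (R 4.3.3) with Benjamini-Hochberg adjustment was fitted to log2 rank share over genes with a summit in all libraries. Python 3.11.15, pandas 2.3.3, numpy 2.4.6 and scipy 1.17.1 were used. Calls were tested on simulated log2 rank shares without missing summits, which did not cover genes that lack a summit in some libraries. Values in every library were given for the catalytic genes, PSMA8, PSMB11, PSME1, PSME2, the highest and lowest HNRNPU gene of each role, and the 3 largest called differences of each comparison. Alternatives included other windows, score limits, shRNAs taken singly, a replicate block and leaving out libraries. The protocol's antibody list named HNRNPU and H3K27ac but neither H3K4me1 nor POLIIS2P. One gene of the ubiquitin list is not reported here by name.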

Additional observations from a re-analysis of the deposited data

Results flagged for a closer look

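Among the 4 shHNRNPU libraries of each histone antibody, the ratio of a library's gap to the whole range served to find libraries standing apart. By it, 1 library stood apart at 9 of 76 gene groups examined. For H3K4me1 these were PSMB11 (ratio 0.878, no summit in shHNRNPU#1 repeat 2 and 38.30 to 43.63 elsewhere), PSMC1 (ratio 1.0, 2.59 in shHNRNPU#2 repeat 2 and no summit elsewhere) and PSME3 (ratio 1.0, 3.64 in shHNRNPU#2 repeat 1 and no summit elsewhere). For H3K27ac a summit in 1 library only gave a ratio of 1.0 at PSMB11 (5.73), PSME1 (45.33) and PSMD8 (27.88). Low values stood apart at PSMA7 (ratio 0.848, 41.96 in shHNRNPU#1 repeat 2), PSMG1 (ratio 0.834, 93.72 in shHNRNPU#1 repeat 1) and PSME3IP1 (ratio 0.847, no summit in shHNRNPU#1 repeat 1).

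At 4 genes every library of shHNRNPU#1 lay on one side of shLUC and every library of shHNRNPU#2 on the other, a difference that was not tested. For H3K27ac the shHNRNPU#1 mean minus the shHNRNPU#2 mean was -72.4 at PSME2, both as titled and with the names exchanged. With the names exchanged it was -77.2 at PSMB6 and -56.7 at PSMF1. With both antibodies averaged it was -28.0 at PSME2 and -4.18 at PSMG1.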

How the results depend on the processing

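Depth, control libraries and the independence of repeats are unknown, ranks hide changes shared by a whole list, 4 against 2 libraries cannot reach a permutation p under 0.0667, and summits of neighbouring genes were not separated. Fewer libraries or genes in a setting also change how easily groups stand apart, and the cause of the shifts given here was not tested. Where no share of all genes stands beside a count below, its rise or fall is not a result about the members. All alternatives for the exchanged names and the leading mark were chosen after seeing the data.

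For H3K4me1 as titled 33 members stood apart (all genes 61.3%). The count became 10 with the names exchanged (13.9%), 17 by limma (51.9%) and 18 by limma with a replicate block (52.5%). It was 33 to 40 with a library left out. For H3K27ac as titled 23 stood apart (all genes 57.8%). The count became 4 with the names exchanged (13.2%), 8 by limma (41.8%) and 7 by limma with a replicate block (39.3%). It was 13 at a minimum score of 10, 15 without flanks, 38 with shHNRNPU#2 only and 24 to 31 with a library left out. With the names exchanged the H3K4me1 count of 10 became 0 among the 20000 highest-scoring summits, 5 at the minimum score, 4 without flanks, 20 with either shRNA alone, 0 by limma with or without a block and 12 to 20 with a library left out (20 and 19 without shLUC repeat 1 or 2). The H3K27ac count of 4 became 2 by summit counts, 22 with shHNRNPU#1 only, 11 with shHNRNPU#2 only, 0 by limma with or without a block and 5 to 27 with a library left out (27 and 11 without shLUC repeat 1 or 2, and 9 without either shHNRNPU#2 library). With both antibodies averaged 12 became 7 among the 20000 summits, 7 at the minimum score, 4 without flanks, 4 by summit counts, 19 and 26 with shHNRNPU#1 or shHNRNPU#2 only, 0 by limma with or without a block and 13 to 27 with a library left out (27 and 21 without shLUC repeat 1 or 2). The POLIIS2P count of 4 became 10 among the 20000 summits, 2 at gene starts, and 15 and 12 without shLUC repeat 1 or 2. HNRNPU in both repeats fell from 38 members to 14 at the minimum score and 10 without flanks, and was 43 for either repeat alone. The 15 members led by H3K27ac became 6 at the minimum score and 27 with shHNRNPU#2 only, and the 8 led by H3K4me1 became 3 among the 20000 summits, 5 at gene starts, 5 without flanks and 15 with shHNRNPU#1 only.

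Repeat numbers did not pair the libraries (correlations of deviations -0.026 to 0.015). A replicate block gave 36 and 23 members as titled, 15 and 9 with the names exchanged and 14 averaged.

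Signs turned at single genes, given here only where the groups stood apart in the comparison as reported. Exchanging names turned H3K4me1 at PSMB5 to 22.06, PSMB8 to -2.794, PSMA7 to 0.8971, PSMB1 to 19.02, PSMC4 to 1.383, PSMD3 to 40.65, PSMG1 to 0.6447, PSMG4 to -1.434, PSMF1 to 33.05, PSMD7 to 16.89, PSMD4 to 29.99, PSMC5 to 16.25 and PSMD10 to 0.8333. It turned H3K27ac at PSMB5 to -3.029, PSMC1 to -3.929, PSMD3 to -0.06371, PSME3 to -4.689, PSMC3 to -20.49, PSMD7 to -1.006, PSMD4 to -2.075 and PSMC5 to -0.9513. Gene starts alone turned H3K4me1 as titled at PSMF1 to 5.398 and PSMD13 to -13.95 and the average at PSMB5 to -1.425. The 20000 highest-scoring summits turned the average at PSMB5 to -1.514 and PSMD3 to -8.543.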
